A study of Mus musculus with 18 samples.

Results

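Meiosis and germline genes are described here in 6 kinds of mouse pluripotent stem cell. They are 38 of the 35773 genes in the count tables, chosen by name: genes for entry into meiosis, for the chromosome axis, for the central region of the synaptonemal complex, for recombination and for telomere attachment, and a few further germ cell genes. Of these, Rad21l and Rnf212 had under 10 counts in every sample. RNA-seq covered 18 samples, 3 in each of 6 groups. The study calls its replicates biological, but the labels do not say whether they came from separate lines or cultures, and p-values measure only the spread between these samples. All groups carried the label wild type and the strain 129S2/SvPasCrl, while the study's methods describe blastocysts of mixed background and reporter lines. ESCs were naive embryonic stem cells in 2i/LIF. AFSCs were primed cells derived from E3.5 blastocysts in N2B27 with Activin A and bFGF, without feeder cells. ASCs (advanced pluripotent stem cells) were derived from AFSCs by culture in ABCL, which is N2B27 with Activin A, BMP4, the Wnt agonist CHIR99021 and LIF. ESC-ASCs were ESCs kept in ABCL. The study converted separate ESC lines, and the labels do not say which line the ESC or ESC-ASC libraries came from. EpiLCs were epiblast-like cells and EpiSCs epiblast stem cells, whose culture is not given in the sources used here. No treatment beyond the medium and no age is given for any group.

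Meiosis makes haploid gametes from diploid germ cells. Cohesins and HORMA-domain proteins build an axis along each chromosome, a programmed break is repaired on the homologous chromosome, and the synaptonemal complex holds the homologues together. Outside the germline most of these genes are silent. Many have CpG-rich promoters that gain DNA methylation after implantation, and in embryonic stem cells a Polycomb complex that contains MGA, MAX, E2F6 and PCGF6 is known to repress part of them. MGA and MAX are known to recognise the E-box CACGTG, and E2F6 the sequence TCCCGC.

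Promoter sequences are shown for 5 members whose levels are described below, to show windows with and without the motifs that the known repressors recognise. RefSeq promoter windows (GRCm38.p6, 250 bases before to 50 after the start) matched 33 of the 38 members, 29 of them within 500 bases of the gene's start in the annotation of the count tables. Capitals mark CACGTG and TCCCGC on either strand (GCGGGA is TCCCGC read from the other strand), and the 2 motifs share no bases. Sycp3 (chr10:88459337-88459636, plus strand), Hormad1 (chr3:95559427-95559726, plus strand) and Sycp1 (chr3:102936051-102936350, minus strand) hold both motifs, Tex19.1 (chr11:121145893-121146192, plus strand) holds only TCCCGC, and Dazl (chr17:50293571-50293870, minus strand) holds neither in this window.
Sycp3: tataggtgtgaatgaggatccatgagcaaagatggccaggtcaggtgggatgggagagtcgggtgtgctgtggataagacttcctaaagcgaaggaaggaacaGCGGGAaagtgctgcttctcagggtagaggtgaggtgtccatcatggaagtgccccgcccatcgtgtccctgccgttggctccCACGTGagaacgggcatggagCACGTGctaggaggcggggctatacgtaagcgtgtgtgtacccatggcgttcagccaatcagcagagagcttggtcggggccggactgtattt
Hormad1: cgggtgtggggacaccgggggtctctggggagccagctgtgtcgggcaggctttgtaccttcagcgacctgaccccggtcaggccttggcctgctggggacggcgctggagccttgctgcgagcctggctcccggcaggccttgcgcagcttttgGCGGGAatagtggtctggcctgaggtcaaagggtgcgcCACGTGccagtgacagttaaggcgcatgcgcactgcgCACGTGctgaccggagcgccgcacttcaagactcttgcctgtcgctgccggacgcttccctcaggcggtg
Sycp1: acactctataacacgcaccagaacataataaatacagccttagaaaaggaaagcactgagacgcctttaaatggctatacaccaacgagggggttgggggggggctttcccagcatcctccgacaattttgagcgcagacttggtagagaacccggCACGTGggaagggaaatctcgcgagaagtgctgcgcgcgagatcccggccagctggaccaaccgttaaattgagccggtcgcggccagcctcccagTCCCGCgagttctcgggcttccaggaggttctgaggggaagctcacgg
Tex19.1: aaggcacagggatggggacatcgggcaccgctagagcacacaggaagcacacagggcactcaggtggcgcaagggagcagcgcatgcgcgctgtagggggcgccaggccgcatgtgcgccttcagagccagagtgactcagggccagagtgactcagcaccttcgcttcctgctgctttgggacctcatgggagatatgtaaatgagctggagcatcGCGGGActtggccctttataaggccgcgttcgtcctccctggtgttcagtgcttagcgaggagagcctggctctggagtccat
Dazl: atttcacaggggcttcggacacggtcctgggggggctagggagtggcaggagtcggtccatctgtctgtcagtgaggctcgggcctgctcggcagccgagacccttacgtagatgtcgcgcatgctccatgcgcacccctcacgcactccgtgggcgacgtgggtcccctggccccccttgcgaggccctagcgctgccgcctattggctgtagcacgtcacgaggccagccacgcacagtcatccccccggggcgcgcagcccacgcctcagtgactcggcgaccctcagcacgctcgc

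CACGTG was in 8 of the 33 member windows (24.2%) and in 7.24% of the windows of 27025 genes. TCCCGC was in 19 (57.6%) against 20%, and both motifs were in 7 (21.2%) against 2.05%. The member windows held a median of 18 CpG, with 2 to 41, against a median of 7 over all genes. Both motifs contain a CpG, and no share matched for CpG number was computed. Members had the window nearest the gene start, and all genes the first window listed. Over all 32851 windows the shares were 7.15% for CACGTG, 20% for TCCCGC and 1.99% for both. Among members with 10 counts in at least 1 sample, the 14 with at most 3 counts in EpiSCs had a median of 18.5 CpG and the 17 with more had 18. CACGTG was in 4 of these 14 and in 3 of these 17, and TCCCGC in 6 and in 12. A motif in a window is a match of letters and not a measured binding site.

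The labels were checked by markers. Naive genes such as Esrrb and Klf4 summed to 13700 to 21900 normalized counts in ESCs, ASCs and ESC-ASCs and to at most 424 in the other groups, whereas primed genes such as T and Eomes reached 904 to 3620 in AFSCs and EpiSCs. Total counts ran from 4961934 to 18071600, with ESC-ASCs at 17813619 or more. Replicate 1 stood apart from replicates 2 and 3 in ESCs, ASCs, EpiLCs and AFSCs, and replicate 2 did so to a lesser degree in EpiSCs and ESC-ASCs. No 2 libraries were identical.

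The members were expressed in ESCs, ASCs, ESC-ASCs and EpiLCs and had lower summed levels in the primed cells. Their summed level was 4336 normalized counts in ESCs (SD 383, n = 3), 6530 in ASCs (SD 209, n = 3), 5113 in ESC-ASCs (SD 33.1, n = 3) and 4247 in EpiLCs (SD 542, n = 3). It was 1194 in AFSCs (SD 105, n = 3) and 903.6 in EpiSCs (SD 99.1, n = 3). No AFSC or EpiSC library reached the lowest library of the other 4 groups, 3929. At most 3 counts over the 3 libraries of a group, the floor used here, were found for 18 of 38 members in AFSCs and for 18 in EpiSCs, but for 7 in ESCs, 2 in ESC-ASCs, 1 in ASCs and none in EpiLCs. The 2 primed groups shared 15 of these members, or 13 without Rad21l and Rnf212, including Stra8, Sohlh2, Dazl, Smc1b, Hormad1 and Syce1. The share of all genes at this floor was not computed. The floor is on raw counts and so also depends on depth, which was greatest in the ESC-ASC libraries. The highest mean was in ASCs for 12 of the 33 members tested, in EpiLCs for 9, in ESC-ASCs for 6, in AFSCs for 3, in ESCs for 2 and in EpiSCs for 1. The group with the highest mean was not counted over all tested genes, so these numbers only describe the members. In bulk samples, fewer cells that express a gene and less RNA per cell cannot be told apart.

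**Figure D1:**
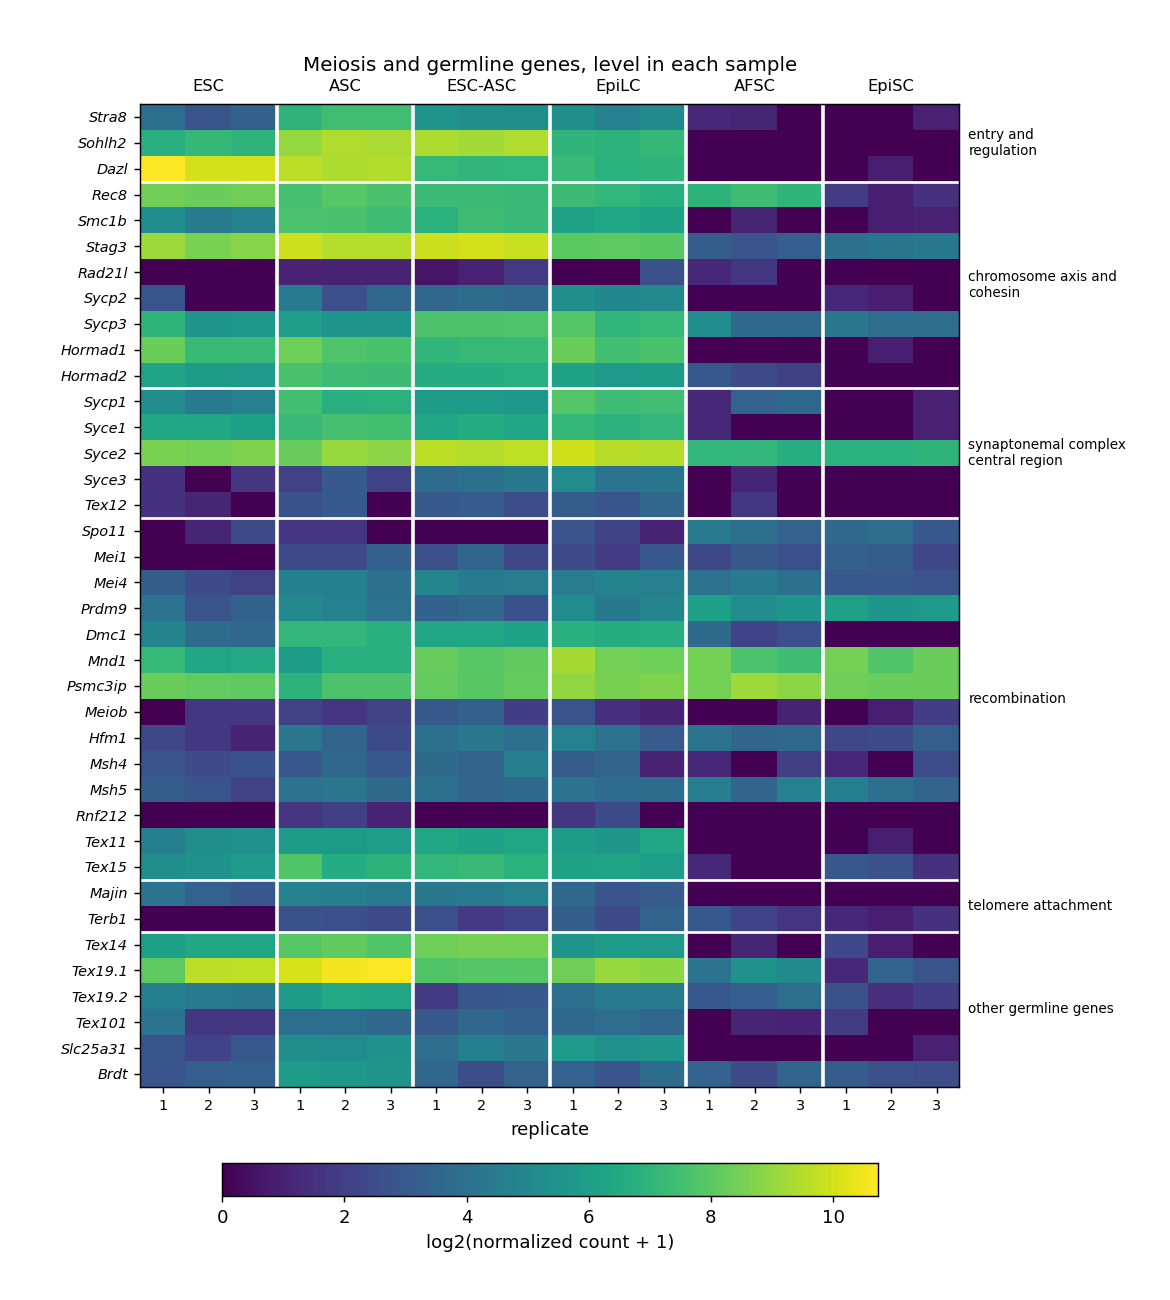
Level of all 38 members (rows, grouped by role) in each of the 18 samples (columns, replicates 1 to 3 of each group), as log2(normalized count + 1). The AFSC and EpiSC columns are dark for many members, with 18 members at 3 counts or fewer in each of these groups, while Mnd1, Psmc3ip, Syce2 and Prdm9 stay visible there.

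Tests were made with edgeR's quasi-likelihood test on all 16901 genes that reached 10 counts in 3 samples or more, which held 33 members. Rad21l, Rnf212, Mei1, Meiob and Terb1 were not tested. A gene was called when its Benjamini-Hochberg adjusted p was below 0.05 and its log2 fold change was beyond 1. A member that passed this filter only through the group where it is high had to differ, so the counts below describe the members and do not show more than that. The comparisons against ESCs share the ESC libraries, and those of ASCs share the ASC libraries.

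In ASCs 19 of 33 tested members were higher than in ESCs and none was lower, where 18.5% of all tested genes were higher and 7.26% lower. DESeq2 also called 0 lower. An unadjusted edgeR p below 0.05 with a lower level was found for 3 members, Dazl, Rec8 and Psmc3ip, whose log2 fold changes were within 1. The median log2 fold change of the members was 1.47, against 0.02 over all tested genes. ESC-ASCs had 21 members higher than ESCs and 5 lower (19.3% and 17.1% of all genes), with a median of 1.13, and EpiLCs had 15 higher and 2 lower (18% and 15.9%), with a median of 0.86. The members higher in both ASCs and ESC-ASCs than in ESCs numbered 13, and 9 of them were also higher in EpiLCs: Stra8, Smc1b, Sycp2, Sycp1, Mei4, Dmc1, Hfm1, Msh5 and Slc25a31. These overlaps were not counted over all tested genes, and the comparisons share the ESC libraries, so they only list members.

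In the primed cells 21 members were lower than in ESCs, in AFSCs (19.6% of all genes) as in EpiSCs (22%), and they were the same 21 genes. This overlap was not counted over all tested genes either. Members higher numbered 6 in AFSCs (19.9%) and 4 in EpiSCs (19%), which is 18.2% and 12.1% of the members. ASCs had 24 members higher and 4 lower than AFSCs, the cells they were derived from (22.7% and 16.7%), and 27 higher and 3 lower than EpiSCs (25.6% and 16.8%). Without AFSC replicate 1 the count lower in ASCs than in AFSCs was 2. The median log2 fold change was 4.06 against AFSCs and 5.35 against EpiSCs. It was 3.84 and 4.55 with members that had no count in the primed group set to their lower bound. Members with any count there kept their fitted value. ESC-ASCs had 3 members higher and 9 lower than ASCs (8.04% and 16.5%).

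**Figure D2:**
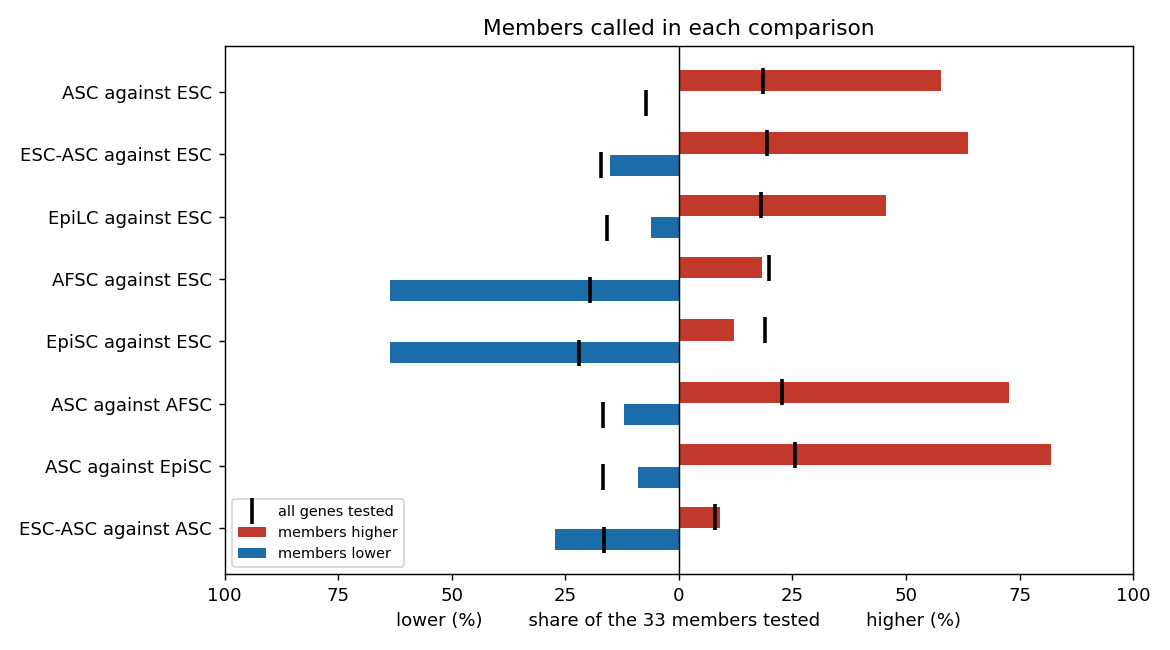
Share of the 33 tested members called higher (right, red) or lower (left, blue) in each of 8 comparisons, with black marks at the share of all 16901 tested genes. The red bars exceed their marks for ASCs, ESC-ASCs and EpiLCs against ESCs and for ASCs against AFSCs and EpiSCs. For ESC-ASCs against ASCs the red bar is close to its mark (9.09% against 8.04%). The blue bars exceed their marks for AFSCs and EpiSCs against ESCs (63.6% each) and for ESC-ASCs against ASCs (27.3%).

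Markers of other cell states also differed between the groups. Genes of 2-cell-like cells, the Zscan4 family, Zfp352 and Tcstv genes, summed to 5450 to 6750 normalized counts in ASCs, 50 to 74.8 in ESCs, 395 to 575 in ESC-ASCs and 308 to 485 in EpiLCs. They reached at most 13.5 in AFSCs and 1.91 in EpiSCs, and 8 of 8 were higher in ASCs than in ESCs. Primordial germ cell genes such as Dppa3 and Ddx4 summed to 2730 to 4530 in ESCs, 1020 to 1260 in ASCs and 107 to 180 in AFSCs. Of these 6 genes, 1 was higher and 2 were lower in ASCs than in ESCs. Late germ cell genes had low levels. Their sums were lowest in the primed groups, as for the members, but highest in ESCs and not in ASCs. The 10 spermatogenic and oocyte genes summed to 91.9 to 120 in ESCs and 80.9 to 88.3 in ASCs. Their sums were 31.3 to 36.4 in ESC-ASCs, 40.7 to 53.2 in EpiLCs and at most 2.69 in AFSCs and 2.62 in EpiSCs. No count was found for 6 of the 10 in ESCs and for 3 in ASCs. Of these 10 only Zp3, a gene of the egg coat, was tested. It was higher in ASCs than in AFSCs (log2 fold change 7.20, SE 0.44, adjusted p = 3.45e-10), while Prm2 and Tnp1, of the sperm nucleus, were at 0 in every group. Fibroblast genes had another order, with 375 to 613 in ASCs, 236 to 488 in ESCs, 194 to 343 in AFSCs, 106 to 177 in EpiLCs, 91.5 to 116 in ESC-ASCs and 46.8 to 56.4 in EpiSCs. Of their 4 tested genes, 2 were higher and 2 lower in ASCs than in ESCs. The part of these cell states in the members' differences was not tested.

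Of the regulators of germ cell entry, Stra8 and Sohlh2 were higher in ASCs than in ESCs while Dazl was not. Stra8 is the retinoic acid-induced gatekeeper of meiotic entry. Stra8 stood at 13.8, 5.82 and 8.92 normalized counts in the 3 ESC libraries, at 124, 170.3 and 173 in ASCs and at 46.0, 40.1 and 38.2 in ESC-ASCs. In EpiLCs Stra8 stood at 39.3, 24.8 and 33.2, in AFSCs at 1.35, 1.16 and 0 and in EpiSCs at 0, 0 and 0.955. The 3 ASC libraries lay above all others, and those of ESC-ASCs and EpiLCs lay above the ESC libraries. Stra8 was higher in ASCs than in ESCs (log2 fold change 4.08, SE 0.31, adjusted p = 6.19e-09) and lower in ESC-ASCs than in ASCs (log2 fold change -1.90, SE 0.23, adjusted p = 1.77e-06). It was 201-fold (95% exact interval 55.2 to 1660) higher in ASCs than in AFSCs. Intervals of this kind cover counting error only.

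Sohlh2 encodes a bHLH factor of early spermatogonia and oocytes. Sohlh2 stood at 106, 141 and 126 normalized counts in the 3 ESC libraries, at 515, 688 and 649 in ASCs and at 682, 608 and 695 in ESC-ASCs. In EpiLCs Sohlh2 stood at 127, 120.3 and 140.2, in AFSCs at 0, 0 and 0 and in EpiSCs at 0, 0 and 0. No read of Sohlh2 was counted in any primed library, and the ASC and ESC-ASC libraries overlapped at the top. Sohlh2 was higher in ASCs than in ESCs (log2 fold change 2.27, SE 0.16, adjusted p = 2.49e-08) and in ESC-ASCs than in ESCs (log2 fold change 2.38, SE 0.16, adjusted p = 5.7e-09). It was at least 530-fold higher in ASCs than in AFSCs, with the floor taken as 3 counts over the group.

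Dazl encodes an RNA-binding protein that licenses germ cells for gametogenesis. Dazl stood at 1693, 1063 and 1059 normalized counts in the 3 ESC libraries, at 810.3, 677 and 721 in ASCs and at 144, 131 and 137 in ESC-ASCs. In EpiLCs Dazl stood at 152, 115 and 125, in AFSCs at 0, 0 and 0 and in EpiSCs at 0, 0.881 and 0. It ran against the other 2 regulators: ESCs were highest without overlap, ASCs came next, and ESC-ASCs and EpiLCs lay at similar, much lower levels. Dazl was lower in ESC-ASCs than in ESCs (log2 fold change -3.21, SE 0.18, adjusted p = 2.92e-10), in EpiLCs than in ESCs (log2 fold change -3.27, SE 0.19, adjusted p = 1.83e-10) and in ESC-ASCs than in ASCs (log2 fold change -2.41, SE 0.18, adjusted p = 1.77e-08). It was at least 630-fold higher in ASCs than in AFSCs.

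**Figure D3:**
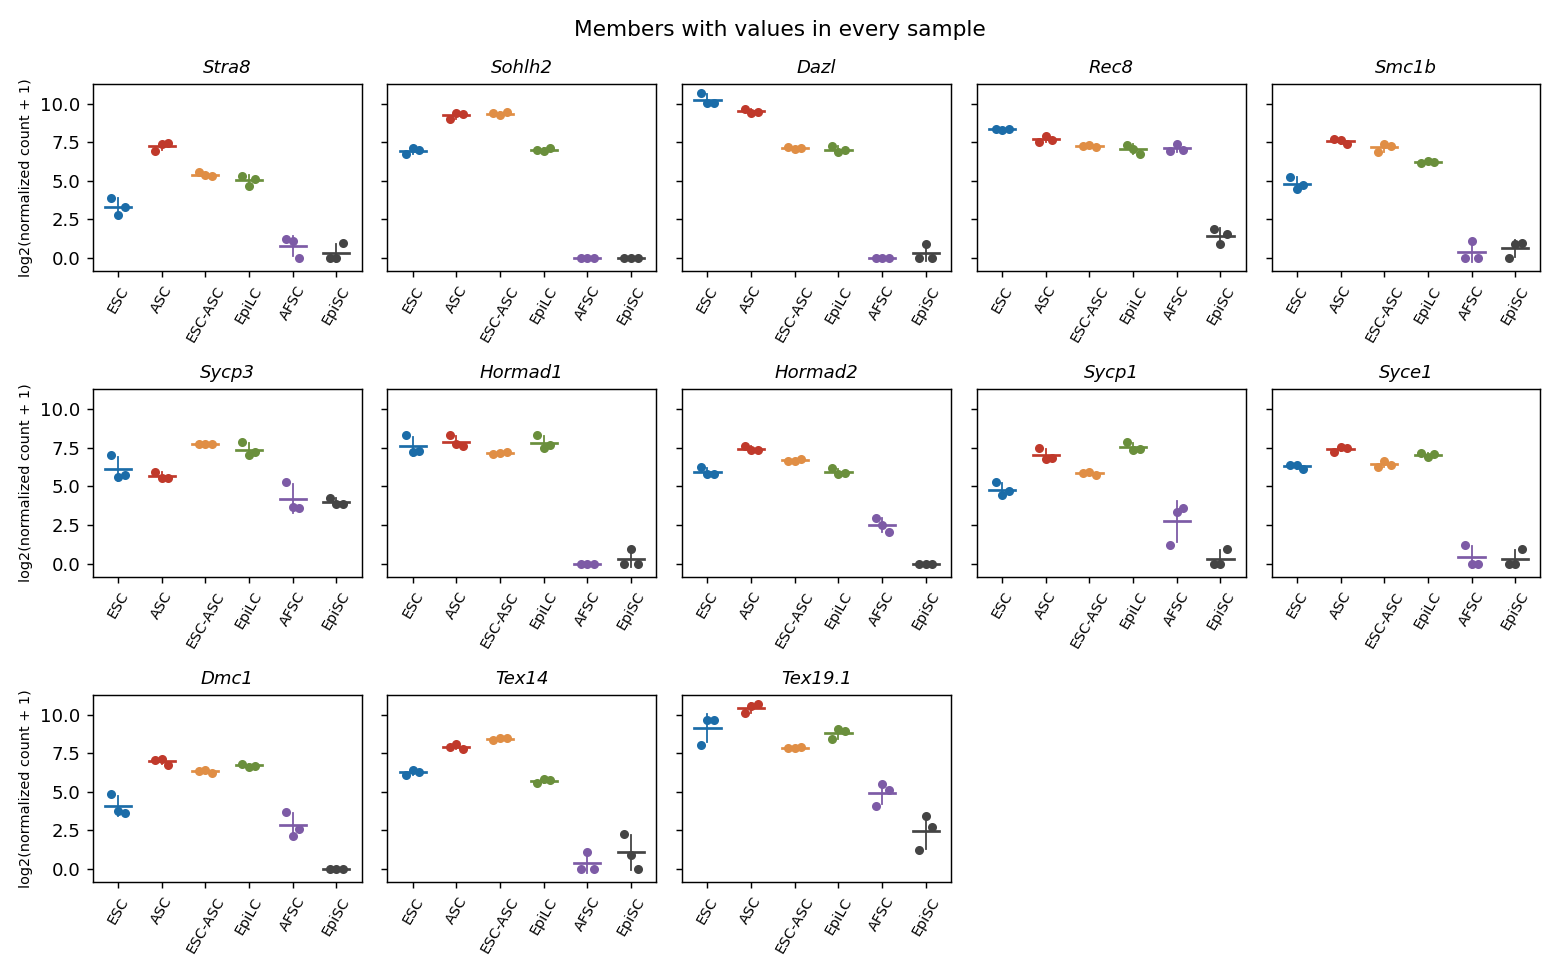
Log2(normalized count + 1) of 13 members in each sample, with points for the 3 replicates, a horizontal line at the mean and a vertical line for the SD. Dazl falls in ESC-ASCs and EpiLCs, Stra8 peaks in ASCs, and Rec8 stays up in AFSCs but not in EpiSCs.

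Among the 7 tested genes of the axis and its cohesins, 7 were higher in ASCs than in EpiSCs (25.6% of all genes), 6 than in AFSCs (22.7%) and 3 than in ESCs (18.5%). Rec8 encodes the meiotic kleisin of cohesin. Rec8 stood at 337, 311 and 334 normalized counts in the 3 ESC libraries, at 186, 245 and 202 in ASCs and at 156, 159 and 149 in ESC-ASCs. In EpiLCs Rec8 stood at 163, 136 and 106, in AFSCs at 119.8, 168 and 128 and in EpiSCs at 2.62, 0.881 and 1.91. The AFSC libraries overlapped those of EpiLCs and ESC-ASCs, while the EpiSC libraries were nearly empty. Rec8 was lower in AFSCs than in ESCs (log2 fold change -1.23, SE 0.17, adjusted p = 4.1e-06) and much lower in EpiSCs than in ESCs (log2 fold change -7.50, SE 0.30, adjusted p = 1.14e-13). ASCs and AFSCs differed by less than the threshold (log2 fold change 0.58, SE 0.17, adjusted p = 0.0064).

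Smc1b encodes the meiotic SMC1 subunit of cohesin. Smc1b stood at 37.4, 20.9 and 25.7 normalized counts in the 3 ESC libraries, at 207, 201 and 168 in ASCs and at 115, 168 and 152 in ESC-ASCs. In EpiLCs Smc1b stood at 71.6, 77.8 and 73.8, in AFSCs at 0, 1.16 and 0 and in EpiSCs at 0, 0.881 and 0.955. ASCs and ESC-ASCs were highest, EpiLCs lay between them and ESCs, and the primed libraries held 1 count in AFSCs and 2 in EpiSCs. Smc1b was higher than in ESCs in ASCs (log2 fold change 2.80, SE 0.24, adjusted p = 2.68e-08), in ESC-ASCs (log2 fold change 2.40, SE 0.24, adjusted p = 6.84e-08) and in EpiLCs (log2 fold change 1.47, SE 0.25, adjusted p = 5.42e-05).

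Sycp3 encodes a filament protein of the axis. Sycp3 stood at 129.9, 47.7 and 52.4 normalized counts in the 3 ESC libraries, at 61.5, 46.7 and 46.1 in ASCs and at 213, 214 and 217 in ESC-ASCs. In EpiLCs Sycp3 stood at 232, 132 and 147, in AFSCs at 37.7, 11.6 and 11.4 and in EpiSCs at 18.4, 13.2 and 13.4. ESC-ASCs stood above all ESC and ASC libraries, and replicate 1 was the highest library in every group but ESC-ASCs. Sycp3 was higher in ESC-ASCs than in ESCs (log2 fold change 1.54, SE 0.33, adjusted p = 0.000585) and than in ASCs (log2 fold change 2.07, SE 0.34, adjusted p = 5.69e-05), and ASCs did not pass the test against ESCs (log2 fold change -0.52, SE 0.37, adjusted p = 0.243). Its call in EpiLCs against ESCs (log2 fold change 1.22, SE 0.34, adjusted p = 0.00498) was lost without EpiLC replicate 1, where the log2 fold change was 0.92. Over 52.2% of its exonic length Sycp3 overlaps Chpt1 on the opposite strand, and counting ignored strand, so reads of the 2 genes cannot be told apart there. Chpt1 averaged 272 normalized counts in ESCs, 181 in ASCs, 185 in EpiLCs and 209.7 in ESC-ASCs, but 89.8 in AFSCs and 85.4 in EpiSCs.

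Hormad1 and Hormad2 encode HORMA-domain proteins that mark unsynapsed axes. Hormad1 stood at 321, 149 and 154 normalized counts in the 3 ESC libraries, at 323, 216 and 197 in ASCs and at 134, 144 and 152 in ESC-ASCs. In EpiLCs Hormad1 stood at 318, 179 and 202, in AFSCs at 0, 0 and 0 and in EpiSCs at 0, 0.881 and 0. The ESC libraries overlapped those of ASCs, ESC-ASCs and EpiLCs, ESC-ASCs lay below ASCs and EpiLCs, and the only primed count was 1 in EpiSCs. Hormad1 did not pass the test in ASCs against ESCs (log2 fold change 0.25, SE 0.28, adjusted p = 0.48), and it was at least 210-fold higher in ASCs than in AFSCs. Hormad1 shares 22.9% of its 50-base words with 2 other genes, the most of them with Gm15529, so its level is uncertain.

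Hormad2 stood at 74.8, 55.9 and 54.7 normalized counts in the 3 ESC libraries, at 197, 167 and 162 in ASCs and at 99.1, 99.7 and 108 in ESC-ASCs. In EpiLCs Hormad2 stood at 71.6, 54.0 and 56.7, in AFSCs at 6.73, 4.63 and 3.11 and in EpiSCs at 0, 0 and 0. Hormad2 had no overlap between ASCs and any other group. It was higher in ASCs than in ESCs (log2 fold change 1.51, SE 0.19, adjusted p = 5.12e-06), and a low level remained in AFSCs but not in EpiSCs. Of the remaining axis genes, Stag3, a meiotic cohesin subunit, was higher in ESC-ASCs than in ESCs (log2 fold change 1.07, SE 0.14, adjusted p = 3.48e-06). In ASCs against ESCs Stag3 did not pass the fold threshold (log2 fold change 0.815, SE 0.145, adjusted p = 0.000142). ESC-ASCs against ASCs was not called (log2 fold change 0.258, SE 0.14, adjusted p = 0.133). Stag3 averaged 460 normalized counts in ESCs, 7.39 in AFSCs and 16.8 in EpiSCs. Sycp2, an axis filament protein, was at most 39.3 normalized counts in any library, with 3 counts in all in ESCs.

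All 5 tested genes of the synaptonemal complex central region were higher in ASCs than in EpiSCs (25.6% of all genes), and 4 were higher than in AFSCs (22.7%). Sycp1 encodes the transverse filament that links the 2 axes. Sycp1 stood at 37.4, 20.9 and 24.5 normalized counts in the 3 ESC libraries, at 177, 107 and 114 in ASCs and at 58.1, 60.1 and 51.8 in ESC-ASCs. In EpiLCs Sycp1 stood at 229.9, 165 and 171, in AFSCs at 1.35, 9.26 and 11.4 and in EpiSCs at 0, 0 and 0.955. EpiLCs overlapped ASCs, and AFSC replicates 2 and 3 kept a low level. Sycp1 was higher than in ESCs in ASCs (log2 fold change 2.29, SE 0.31, adjusted p = 8.19e-06) and in EpiLCs (log2 fold change 2.82, SE 0.31, adjusted p = 2.49e-07). In ESC-ASCs against ESCs (log2 fold change 1.07, SE 0.32, adjusted p = 0.0065) the call was lost without ESC replicate 2, with a log2 fold change of 0.91. In ESC-ASCs against ASCs (log2 fold change -1.22, SE 0.26, adjusted p = 0.000837) it was lost without ASC replicate 1, with -0.955.

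Syce1 encodes a central element protein. Syce1 stood at 84.7, 82.6 and 68.0 normalized counts in the 3 ESC libraries, at 151, 190.0 and 179 in ASCs and at 77.3, 98.7 and 84.0 in ESC-ASCs. In EpiLCs Syce1 stood at 139.8, 119 and 135, in AFSCs at 1.35, 0 and 0 and in EpiSCs at 0, 0 and 0.955. ESC-ASCs overlapped ESCs, and ASCs were the highest group. Syce1 was higher in ASCs than in ESCs (log2 fold change 1.13, SE 0.20, adjusted p = 0.000151) and did not pass the fold threshold in ESC-ASCs against ASCs (log2 fold change -0.99, SE 0.19, adjusted p = 0.000274), although it did so without ESC-ASC replicate 2, with -1.11. Syce2, another central element gene, was the only member of this class to stay above 100 normalized counts in every library, from 101.5 in AFSCs to 999.5 in EpiLCs. Syce3 and Tex12 were low, at most 34.7 and 10.7 normalized counts.

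Of the 11 tested recombination genes, 6 were higher in ASCs than in ESCs (18.5% of all genes). Against AFSCs 4 were higher and 4 lower (22.7% and 16.7%), and against EpiSCs 5 were higher and 3 lower (25.6% and 16.8%). Dmc1 encodes the meiosis-specific strand exchange recombinase. Dmc1 stood at 27.6, 12.8 and 11.2 normalized counts in the 3 ESC libraries, at 135, 138 and 108 in ASCs and at 79.4, 85.5 and 73.9 in ESC-ASCs. In EpiLCs Dmc1 stood at 112, 99.1 and 102, in AFSCs at 12.1, 3.47 and 5.18 and in EpiSCs at 0, 0 and 0. ASCs, EpiLCs and ESC-ASCs all lay above the ESC libraries, and EpiSCs had no count. Dmc1 was higher in ASCs than in ESCs (log2 fold change 2.96, SE 0.29, adjusted p = 4.09e-07), in EpiLCs than in ESCs (log2 fold change 2.71, SE 0.30, adjusted p = 5.64e-07) and in ESC-ASCs than in ESCs (log2 fold change 2.30, SE 0.29, adjusted p = 3.49e-06).

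The members called higher in primed cells than in ESCs were all recombination genes, and they were singled out after their values were seen. They were 6 in AFSCs and 4 in EpiSCs, or 18.2% and 12.1% of the members, which is not above the 19.9% and 19% of all genes. Of these, Mei4, Hfm1 and Msh5 were also higher than in ESCs in ASCs, ESC-ASCs and EpiLCs. Spo11, which makes the programmed break, ranged from 6.68 to 20.2 normalized counts in AFSCs and EpiSCs and from 0 to 5.78 elsewhere. Prdm9, the histone methyltransferase that places the breaks, ranged from 37.0 to 69.6 in AFSCs and EpiSCs and from 5.53 to 34.7 elsewhere. Mnd1, a partner of DMC1, was higher than in ESCs in AFSCs (log2 fold change 1.27, SE 0.32, adjusted p = 0.00221) and EpiSCs (log2 fold change 1.54, SE 0.32, adjusted p = 0.00036). Mnd1 was also higher than in ESCs in EpiLCs (log2 fold change 2.09, SE 0.32, adjusted p = 1.74e-05), where its mean was highest. The same held for ESC-ASCs (log2 fold change 1.42, SE 0.31, adjusted p = 0.000751). Mnd1 shares 40.8% of its 50-base words with its pseudogene Mnd1-ps. Spo11, Prdm9 and Mnd1 were lower in ASCs than in both primed groups. Spo11 reached 10 counts in only 3 libraries, all of them primed, and at most 15 counts in any. It passed the filter only through the groups where it was high, so its call in ASCs shows no more than that. Psmc3ip, the partner of Mnd1, was lower in ASCs than in AFSCs (log2 fold change -1.36, SE 0.19, adjusted p = 5.27e-06), and 21.2% of its exonic length overlaps Mlx on the opposite strand. Per kb of exon, the highest members in EpiSCs were Mnd1 at a level of 342 and Psmc3ip at 177, whereas in ASCs they were Tex19.1 at 756 and Sohlh2 at 261.

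The crossover genes Hfm1, Msh4 and Msh5 and the break factor Mei4 were low, at most 28.8 normalized counts in any library. Tex15, which is needed for break repair, was higher in ASCs (log2 fold change 1.66, SE 0.29, adjusted p = 0.000109) and ESC-ASCs (log2 fold change 1.53, SE 0.28, adjusted p = 0.000121) than in ESCs. Tex11, a crossover gene on the X chromosome, was higher in ESC-ASCs than in ESCs (log2 fold change 1.13, SE 0.25, adjusted p = 0.000819) and not called in ASCs (log2 fold change 0.71, SE 0.26, adjusted p = 0.0328). X-linked genes as a whole had a median log2 fold change of 1.03 in ASCs against ESCs and of 0.05 in ESC-ASCs against ESCs. Majin, of the telomere attachment complex, was higher in ASCs (log2 fold change 1.22, SE 0.35, adjusted p = 0.0102) and ESC-ASCs (log2 fold change 1.09, SE 0.34, adjusted p = 0.0114) than in ESCs and had no count in AFSCs or EpiSCs.

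All 6 further germ cell genes were higher in ASCs than in AFSCs (22.7% of all genes) and EpiSCs (25.6%), and 5 were higher than in ESCs (18.5%). Tex14 encodes a protein of the intercellular bridges of germ cells. Tex14 stood at 66.9, 85.0 and 78.1 normalized counts in the 3 ESC libraries, at 242, 272 and 222 in ASCs and at 331, 367 and 353 in ESC-ASCs. In EpiLCs Tex14 stood at 46.2, 57.5 and 53.5, in AFSCs at 0, 1.16 and 0 and in EpiSCs at 3.94, 0.881 and 0. ESC-ASCs were highest without overlap, and EpiLCs lay below the ESC libraries. Tex14 was higher in ASCs than in ESCs (log2 fold change 1.64, SE 0.21, adjusted p = 4.2e-06) and in ESC-ASCs than in ESCs (log2 fold change 2.16, SE 0.21, adjusted p = 5.3e-08).

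Tex19.1 encodes a germ cell protein that restrains retrotransposons. Tex19.1 stood at 268, 801 and 829 normalized counts in the 3 ESC libraries, at 1093, 1497 and 1653 in ASCs and at 225, 234 and 240.3 in ESC-ASCs. In EpiLCs Tex19.1 stood at 338, 542 and 485, in AFSCs at 16.2, 44.0 and 34.2 and in EpiSCs at 1.31, 9.69 and 5.73. ASCs were highest without overlap, and ESC replicate 1 lay far below the other 2 ESC libraries. Tex19.1 was higher in ASCs than in ESCs (log2 fold change 1.12, SE 0.32, adjusted p = 0.00756), but without ESC replicate 1 the log2 fold change was 0.76 (edgeR adjusted p = 0.0163) and the call was lost. It was lower in ESC-ASCs than in ESCs (log2 fold change -1.47, SE 0.33, adjusted p = 0.000789) and than in ASCs (log2 fold change -2.59, SE 0.33, adjusted p = 5.44e-06). Its paralog Tex19.2, singled out after its values were seen, showed the same directions in ASCs against ESCs (log2 fold change 1.85, SE 0.30, adjusted p = 5.08e-05) and in ESC-ASCs against ESCs (log2 fold change -1.94, SE 0.36, adjusted p = 0.000151). The 2 genes share 2.67% of the 50-base words of Tex19.1.

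Brdt, a testis bromodomain gene, and Slc25a31, a germ cell ADP/ATP carrier, were also singled out after their values were seen. Brdt ranged from 46.1 to 56.1 normalized counts in ASCs and from 4.63 to 12.8 in the other 5 groups. It was higher in ASCs than in ESCs (log2 fold change 2.66, SE 0.34, adjusted p = 4.43e-06) and lower in ESC-ASCs than in ASCs (log2 fold change -2.60, SE 0.29, adjusted p = 6.93e-07). Slc25a31 ranged from 36.3 to 45.0 in ASCs, from 40.7 to 55.5 in EpiLCs and from 3.49 to 6.69 in ESCs. Tex101, a germ cell surface gene, was at most 15.8 in any library.

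The change on entering ABCL was compared between the primed start (ASCs minus AFSCs) and the naive start (ESC-ASCs minus ESCs), 2 differences that share no sample. Each change is a difference between groups, because the labels do not say whether the cells compared came from the same line. The signed log2 change was more positive from AFSCs for 20 of 33 members and more negative for 5 (24.4% and 20.8% of all genes). The 5 were the recombination genes Mei4, Mnd1, Psmc3ip, Hfm1 and Msh5. The test is of the signed difference and not of the size of the change: Mnd1 moved by -1.44 from AFSCs and by 1.42 from ESCs, and Psmc3ip by -1.36 and -0.07. Rec8 fell from ESCs, with a log2 fold change of -1.09, and was not called from AFSCs, with 0.58, and the difference was called (log2 difference 1.67, SE 0.24, adjusted p = 6.71e-06). Dmc1 rose from both starts, by 2.30 from ESCs and 4.20 from AFSCs, with a called difference (log2 difference 1.90, SE 0.48, adjusted p = 0.00275). For members near 0 in AFSCs the fitted size depends on the small count that edgeR adds, and it is no bound. Such members could not fall from AFSCs, so the starting level fixed the direction of their change. The contrast also equals the difference between ESCs and AFSCs less that between ESC-ASCs and ASCs. It therefore cannot tell a different response to ABCL from different levels in the starting cells.

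**Figure D4:**
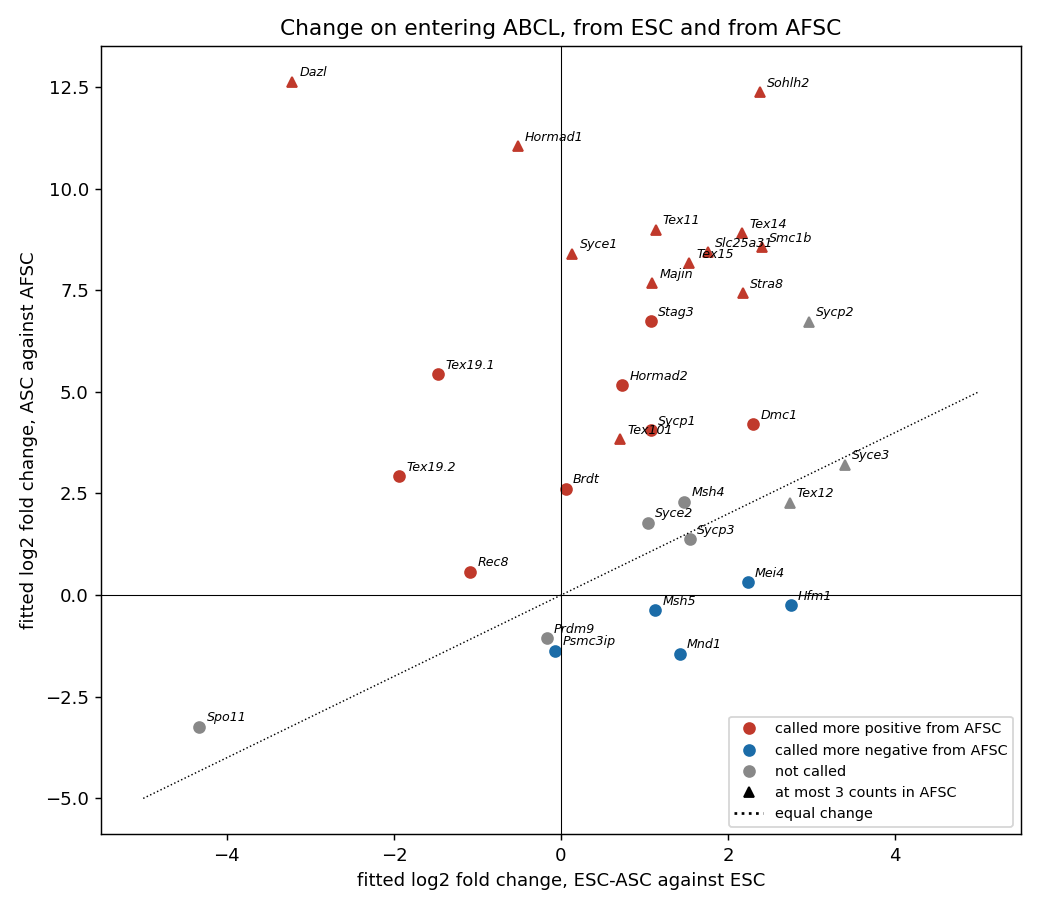
Fitted log2 fold change of each of the 33 tested members in ESC-ASCs against ESCs (horizontal) and in ASCs against AFSCs (vertical), coloured by the test of the difference, with triangles for members at 3 counts or fewer in AFSCs and a dotted line of equal change. The 20 members called more positive from AFSCs lie above the line and the 5 called more negative lie below it.

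Of 28 further meiosis genes, 24 were tested. Against ESCs, ASCs had 5 higher and 3 lower (18.5% and 7.26% of all genes), ESC-ASCs 8 and 3 (19.3% and 17.1%) and EpiLCs 7 and 4 (18% and 15.9%). AFSCs had 2 higher and 11 lower (19.9% and 19.6%), and EpiSCs 1 and 14 (19% and 22%). ASCs had 13 higher and 2 lower than AFSCs (22.7% and 16.7%), and 13 higher and 1 lower than EpiSCs (25.6% and 16.8%). ESC-ASCs had 3 higher and 0 lower than ASCs (8.04% and 16.5%), where the 33 members had 3 higher and 9 lower. The 5 of 24 higher in ASCs than in ESCs is near the share of all genes. Their median log2 fold change in ASCs against ESCs was 0.13, less than that of the 33 members. Six6os1, of the central element, was higher in ASCs than in ESCs (log2 fold change 3.94, SE 0.38, adjusted p = 3.2e-07), whereas Fkbp6, a chaperone of germ cells, was lower (log2 fold change -1.49, SE 0.18, adjusted p = 6.66e-06).

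Among 14 genes for known repressors of germline genes, 1 was called higher in ASCs than in ESCs, where 18.5% of all genes were higher. It was Dnmt3a, a de novo DNA methyltransferase (log2 fold change 2.38, SE 0.17, adjusted p = 3.02e-09). Against EpiSCs, where 25.6% of all genes were higher and 16.8% lower, ASCs were higher in Mga (log2 fold change 1.44, SE 0.19, adjusted p = 1.66e-06) and lower in Dnmt3b (log2 fold change -2.99, SE 0.15, adjusted p = 4.28e-12), E2f6 (log2 fold change -1.54, SE 0.21, adjusted p = 2.56e-06) and Cbx3 (log2 fold change -1.30, SE 0.19, adjusted p = 6.14e-06).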

How the data were processed

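Mouse RNA-seq of 18 samples in 6 groups of 3 was used. The deposited values were raw fragment counts. From strand-marked polyA libraries, the authors aligned read pairs with TopHat2 (GRCm38) and ran featureCounts 1.5.0-p1 over exons of Ensembl release 86, ignoring strand and counting a fragment for each gene overlapped by 10 bases or more and at each place it mapped. Genes that overlap or share sequence therefore share counts. Groups follow the labels, since table names use ASC for samples labelled AFSC. Totals were 4961934 to 18071600, so a few counts per group limit the size of many fold changes.

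Size factors from DESeq2 1.42.0 gave the normalized counts, per kb of exon only where stated. Tests used edgeR 4.0.16 (TMM, robust quasi-likelihood, group only, all 18 samples, R 4.3.3), with Benjamini-Hochberg adjustment over 16901 genes in each of 8 comparisons and in the difference between ABCL changes. The SE is the log2 fold change divided by the square root of F. Scripts were tested on simulated data. A fold against a group at 0 is a lower bound from 3 counts over the group; at 1 to 3 counts the ratio has an exact 95% interval. Promoters came from RefSeq; 5 members without a window and 2 further meiosis genes, Spata22 and Rnf212b, were not analysed here. Figures were drawn with matplotlib 3.10.9.

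Values in every sample are given for Stra8, Sycp3, Dazl and the 12 tested members with the widest range of group means on the log2 scale, 13 genes in all; others are given by counts and range, and up to 4 genes of each further list by their fold change in ASCs against ESCs or EpiSCs. Members and lists were chosen with earlier results of these data known. Replicate numbers were checked for pairing: deviations from group means of same-numbered samples correlated at 0.0808 on average over 45 pairs (-0.206 to 0.46). Every pair was over 0.1 for EpiLCs against ESCs (0.152 to 0.412) and AFSCs against ESCs (0.251 to 0.46). Pairs of different number reached 0.326, and replicate 1 stood apart in each of these groups. Whether the numbers pair the samples is therefore not settled, and the labels name no shared batch. Alternatives covered normalization, filters, thresholds, tool, replicate block, left-out libraries and thinned ESC-ASC counts.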

Additional observations from a re-analysis of the deposited data

Results flagged for a closer look

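The test of the difference between the ABCL changes (ASCs minus AFSCs, against ESC-ASCs minus ESCs) flagged 20 members whose signed log2 change was more positive from AFSCs and 5 whose change was more negative. Of all tested genes, 24.4% and 20.8% were called in these directions. In log2 units, with edgeR's adjusted p below 0.05, the differences were 15.84 for Dazl, 11.56 for Hormad1, 9.99 for Sohlh2, 8.26 for Syce1, 6.91 for Tex19.1, 6.74 for Tex14, 6.15 for Smc1b, 5.24 for Stra8, 4.44 for Hormad2, 2.99 for Sycp1, 1.90 for Dmc1 and 1.67 for Rec8. Dazl, Hormad1, Sohlh2, Syce1, Tex14, Smc1b and Stra8 had at most 3 counts in AFSCs, so the size of their fitted difference depends on the small count that edgeR adds and is no bound. Their starting level in AFSCs also left no room for a fall. Groups of 3 samples were too small to test single libraries as outliers.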

How the results depend on the processing

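With a replicate block, every count of members called higher or lower equalled the unblocked one, for example 15 higher and 2 lower in EpiLCs against ESCs and 6 and 21 in AFSCs against ESCs. DESeq2, its size factors, both other filters, thinned ESC-ASC counts and leaving out overlapping members kept every count within 1.5 times. A log2 fold change beyond 2 gave 10 members higher in ASCs against ESCs, 10 higher and 2 lower in ESC-ASCs against ESCs, 9 and 1 in EpiLCs against ESCs, 3 higher in AFSCs against ESCs, 2 higher in EpiSCs against ESCs, 1 lower in ASCs against AFSCs, 1 lower in ASCs against EpiSCs, 1 higher and 5 lower in ESC-ASCs against ASCs, and 2 more negative for the ABCL difference. Adjusted p alone gave 3 lower in ASCs against ESCs, 4 lower in EpiLCs against ESCs, and 6 higher and 14 lower in ESC-ASCs against ASCs. Fitting only the groups compared, where fewer members passed the filter, gave 3 higher in AFSCs against ESCs. The share of all tested genes was computed for the main setting only, so these counts have no background beside them. With 1 library left out, members lower in ASCs than in AFSCs numbered 2 to 4, the 2 without AFSC replicate 1. The same count was 2 without replicate 1 of every group, an alternative chosen after seeing the data. Members higher numbered 16 to 19 in ASCs, 17 to 21 in ESC-ASCs and 12 to 16 in EpiLCs against ESCs. Some values that were not called in these comparisons changed sign: with 1 library left out, the log2 fold change in EpiLCs against ESCs ran from -0.055 to 0.151 for Sohlh2, from -0.104 to 0.607 for Hormad1 and from -0.145 to 0.123 for Hormad2, that of Sohlh2 in ESC-ASCs against ASCs from -0.009 to 0.185, and that of Sycp3 in ASCs against ESCs from -0.777 to 0.003. Without replicate 1 of every group, Sohlh2 was at -0.059 and -0.045 in its 2 comparisons. The cause was not tested.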
